A study of Mus musculus with 12 samples.

Results

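The proteasome subunit genes of mouse myeloid progenitors were followed across 12 RNA libraries. They were picked by gene symbol alone, as Psma, Psmb, Psmc or Psmd followed by a number, or Psme1 to Psme4. The immunoproteasome genes Psmb8, Psmb9 and Psmb10 and symbols marked as pseudogenes were left out. The rule itself uses no measured value, but it was chosen with earlier results of these data known. This gave 41 of the 33924 rows of the count table, of which 40 had enough counts to be tested and Psmb11 did not. The cells were sorted from bone marrow as live cells that carried c-Kit and lacked lineage markers and Sca1, a gate that holds progenitors of several myeloid and erythroid lines. The Lexogen 3' kit used for the libraries samples a single end of a transcript, so levels of different genes were compared without a correction for length.

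Each of 4 groups had 3 libraries. Old het mice were Mx+ Wt1fl/+, with 1 floxed allele of the zinc finger transcription factor gene Wt1, and old control mice were Mx+ Wt1+/+. Young het and young control mice had the same genotypes at the younger age. Mx+ was thus shared by every group. The labels do not spell out Mx+ and record no treatment. In common use it stands for a Cre recombinase under the interferon-inducible Mx1 promoter, which is active in blood cells and in other tissues. All old samples are also labelled chronic and all young samples acute, so age and that condition cannot be told apart. Whether the replicates are separate animals is not stated, and p-values then measure only the spread between these samples, which may be technical. The study set het progenitors against controls of the same age, and the 4 groups also allow old against young within each genotype.

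Proteasomes degrade proteins that carry ubiquitin chains. The core particle is a barrel of outer alpha rings and inner beta rings, in which 3 beta subunits cut peptide bonds. The regulatory particle caps the barrel: its base holds a ring of ATPases that unfold the substrate, and its lid removes the ubiquitin. Other activators, encoded by the Psme genes, can cap the barrel in place of the regulatory particle. In dividing blood progenitors the complex is known for removing short-lived proteins such as cyclins. Transcription of its subunit genes is known to be raised together by the factor Nfe2l1, which binds antioxidant response elements, when proteasome activity is short.

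Total counts ran from 645460 to 9645502 per library, and the proteasome genes took 4884 to 70589 of them, or 0.732 to 0.920%. The totals were 1264603 to 2303346 in old hets, 2074955 to 9645502 in old controls, 3113183 to 6794892 in young hets and 645460 to 1600995 in young controls. They did not overlap between the control groups, between the young groups or between the het groups. The gate genes Kit, Cd34 and Myb were counted in every library and summed to 1439 to 2453 CPM (counts scaled to the same library total). Wt1 had 2 to 4 counts in old hets, 1 to 4 in old controls, 4 to 23 in young hets and 4 to 8 in young controls, too few for a test. Such tags check the genotype only where they lie in the part removed, which the labels do not place. Xist was high and Ddx3y at 0 in the 3 young hets, young control 3 and old het 1, while the other 7 libraries carried counts of the Y-linked Ddx3y. Old control 1 stood apart, with 6 stem and multipotent markers summing to 934 CPM against 122 and 128 CPM in old controls 3 and 2, and 6 dendritic and MHC class II markers to 673 CPM against 53.0 and 76.9 CPM in old controls 2 and 3. Mitochondrial rRNA took 4.78, 1.40 and 4.75% of counts in old hets 1 to 3, 1.70 to 2.38% in old controls, 2.999 to 3.51% in young hets and 4.35 to 8.22% in young controls. Its share did not overlap between the control groups, and old het 2 lay below the other old hets.

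Proteasome genes were abundant in these progenitors. Their mean level over the 12 libraries was above 100 CPM for 24 of the 41 genes and above 40 CPM for 34, and 35 genes had 10 or more counts in every library. The base ATPase gene Psmc1 stood highest with 858 CPM, close to the alpha ring gene Psma7 with 858 CPM and the ubiquitin receptor gene Psmd4 with 836 CPM. Psmc1 had 1034, 794 and 931 CPM in old hets, 608, 673 and 712 CPM in old controls, 1051, 889 and 1081 CPM in young hets and 946, 653 and 922 CPM in young controls. Old controls were lower in Psmc1 than every old het, and they overlapped the young controls.

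Genes whose proteins stand in equal numbers in the particle differed widely in mRNA level. Within the alpha ring the mean ran from 46.4 CPM for Psma3 to 858 CPM for Psma7. Within the beta ring it ran from 7.14 CPM for Psmb5 to 419 CPM for Psmb1. The highest ring gene was thus 120-fold above the lowest. Among the ATPases, Psmc4 had 75.9 CPM and Psmc1 11.3 times as much. Lid genes ran from 85.8 CPM for Psmd6 to 524 CPM for Psmd7, and the non-ATPase base genes from 231 CPM for Psmd1 to 836 CPM for Psmd4. Base assembly chaperone genes, which help build the base and leave it, were lower, from 34.1 CPM for Psmd5 to 71.7 CPM for Psmd9, with Psmd10 at 58.7 CPM.

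Of the 3 catalytic beta genes, Psmb6 averaged 103 CPM, Psmb7 37.0 CPM and Psmb5 7.14 CPM over the 12 libraries. Psmb6, which encodes the caspase-like subunit, had 53.4, 149 and 47.9 CPM in old hets, 149.6, 104 and 147 CPM in old controls, 100.1, 95.6 and 116 CPM in young hets and 100.2, 96.9 and 81.0 CPM in young controls. Old het 2 was level with the old controls and the other old hets lay below every old control. Psmb7, the trypsin-like subunit gene, had 33.2, 44.9 and 20.4 CPM in old hets, 44.2, 42.7 and 45.5 CPM in old controls, 8.06, 28.1 and 23.7 CPM in young hets and 90.4, 35.7 and 26.7 CPM in young controls. Young control 1 was the highest and young het 1 the lowest of the 12 libraries. Psmb5, the chymotrypsin-like subunit gene and the target of proteasome inhibitors such as bortezomib, had 6.47, 8.82 and 1.97 CPM in old hets, 3.57, 9.67 and 10.6 CPM in old controls, 2.02, 12.2 and 4.26 CPM in young hets and 9.11, 17.0 and 0 CPM in young controls. Its groups overlapped in every comparison. Of the 50-base stretches in the last 300 bases of Psmb5 transcripts, 51.4% also occur in the gene model Gm3375, and 82.1% of those of Psmb7 lie in Nek6 on the opposite strand, so their counts are uncertain where such reads were dropped or strands were not separated. Adjusted p was 0.254 or more for the 3 genes in each comparison (edgeR's quasi-likelihood F test, Benjamini-Hochberg over 10604 genes, threshold 0.05).

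Genes of tissue-restricted or unrelated products lay near the bottom of the range, together with Psmb5 (7.14 CPM) and the activator gene Psme2 (6.07 CPM). Psmb11, the beta subunit of thymic epithelium, had 10 counts in young het 2, 4 in young control 1, 2 in old het 1, 1 in old control 1 and 0 in the other 8 libraries. Psma8, the alpha subunit of germ cells, averaged 17.6 ± 5.80 CPM in old hets (SD, n = 3), 7.81 ± 4.22 CPM in old controls, 11.6 ± 3.24 CPM in young hets and 2.85 ± 1.51 CPM in young controls. Hets lay above controls without overlap at both ages, but no difference passed the threshold (adjusted p = 0.999 in old and 0.316 in young mice, edgeR). Young controls 1 to 3 had 4.56, 1.70 and 2.29 CPM of Psma8, where 3 counts equal 2.28, 5.10 and 2.29 CPM. Their values thus rest on very few counts. Psmc3ip matched the symbol rule by its name only. It encodes a cofactor of meiotic recombination and not a subunit, and it was the lowest gene tested, with 4.85, 7.21 and 14.4 CPM in old hets, 1.37, 10.4 and 8.84 CPM in old controls, 0.672, 0.300 and 8.52 CPM in young hets and 6.07, 1.70 and 0 CPM in young controls. All of its 3'-end stretches are shared with Mlx on the opposite strand.

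**Figure D1:**
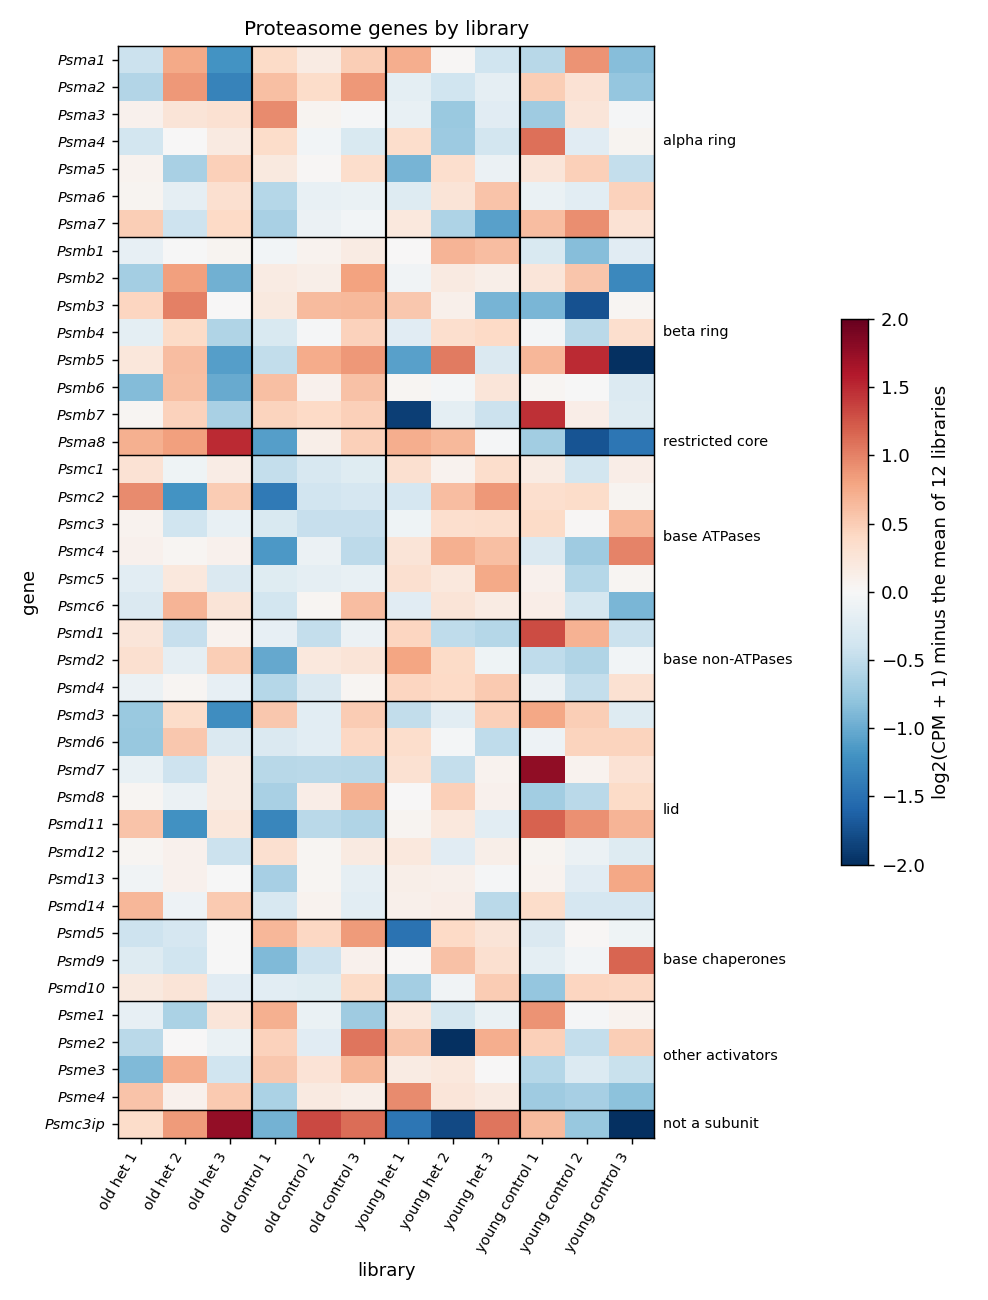
Level of the 40 tested genes (rows, grouped by class) in 12 libraries (columns), as log2(CPM + 1) minus the gene's mean over the libraries, with colours cut at 2. Psmd11 is red in the young controls and blue in the old controls and old het 2, and Psmd7 is darkest in young control 1.

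The promoters of Psmd11, Psme4 and Psma7 are printed because results below turn on these genes and a RefSeq window was matched for each. They are RefSeq windows of build GRCm38.p6, from 250 bases before to 50 after the transcription start, 5′ to 3′ on the gene's strand. Capitals mark matches, on either strand, to the antioxidant response element core TGACNNNGC, the CCAAT box CCAAT and the core CCGGAA bound by ETS factors. No matches to these motifs overlap one another in the 3 windows.
Psmd11, chr11:80428365-80428664, plus strand: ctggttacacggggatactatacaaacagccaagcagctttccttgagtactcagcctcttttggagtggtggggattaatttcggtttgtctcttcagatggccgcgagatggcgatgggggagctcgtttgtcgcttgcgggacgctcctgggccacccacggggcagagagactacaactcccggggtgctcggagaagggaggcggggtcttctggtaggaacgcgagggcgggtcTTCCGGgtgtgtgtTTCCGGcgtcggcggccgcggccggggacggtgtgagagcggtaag
Psme4, chr11:30771525-30771824, plus strand: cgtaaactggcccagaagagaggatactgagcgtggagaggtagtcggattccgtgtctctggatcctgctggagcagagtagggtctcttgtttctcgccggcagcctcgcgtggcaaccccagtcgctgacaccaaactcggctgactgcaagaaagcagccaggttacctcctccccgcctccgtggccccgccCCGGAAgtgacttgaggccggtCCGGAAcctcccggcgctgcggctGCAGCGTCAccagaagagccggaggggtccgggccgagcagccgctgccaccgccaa
Psma7, chr2:180042415-180042714, minus strand: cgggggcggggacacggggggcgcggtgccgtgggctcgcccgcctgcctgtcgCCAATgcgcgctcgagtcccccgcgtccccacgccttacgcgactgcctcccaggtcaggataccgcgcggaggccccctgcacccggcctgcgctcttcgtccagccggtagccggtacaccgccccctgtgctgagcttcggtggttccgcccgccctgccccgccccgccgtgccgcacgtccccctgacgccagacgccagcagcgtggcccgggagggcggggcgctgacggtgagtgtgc
Psmd11 held 2 ETS cores, Psme4 held 2 ETS cores and 1 antioxidant response core, and Psma7 held 1 CCAAT box. Over the 37 windows found for 34 of the 41 genes, 19 held an ETS core (51.4%), against 14.9% of all 32851 RefSeq windows and 18.7% of those of protein-coding genes. An antioxidant response core was found in 6 windows (16.2%), against 12.4% of all windows, and a CCAAT box in 14 (37.8%), against 37.4%. These are matches of letters and not sites shown to be bound. No window was matched for Psma8, Psmb1, Psmb2, Psmb7, Psmc3, Psmd3 and Psmd7.

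Summed over classes, the regulatory particle genes were lowest in old controls, and the group means of the core particle genes lay closer together. The 14 ring genes summed to 2311 ± 29.7 CPM in old hets (SD, n = 3), 2258 ± 247 CPM in old controls, 2171 ± 116 CPM in young hets and 2569 ± 256 CPM in young controls. The 17 base and lid genes summed to 5432 ± 459 CPM in old hets, 4516 ± 674 CPM in old controls, 6298 ± 189 CPM in young hets and 6317 ± 1169 CPM in young controls. Such sums over genes were described and not tested, and they lean on the most abundant genes. Counts of core genes per count of base and lid genes were 0.401, 0.471 and 0.410 in old hets, 0.533, 0.484 and 0.490 in old controls, 0.359, 0.357 and 0.319 in young hets and 0.366, 0.538 and 0.351 in young controls. Every old het lay below every old control in this ratio, and old hets lay above young hets. Young control 2, the shallowest library with 8.22% mitochondrial rRNA, reached the old controls while its 2 replicates stayed near the young hets.

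Base ATPase genes summed to 2339.6, 1836 and 2090.2 CPM in old hets and 1442, 1612 and 1699.8 CPM in old controls, without overlap. In young hets they summed to 2219, 2390.3 and 2796 CPM and in young controls to 2314, 1722 and 2402 CPM. With the TMM scaling used here, the old controls lay below every library of the other groups. TMM factors were 1.08 to 1.14 in old controls, and 0.826, 0.916 and 0.963 in young controls. Without these factors young control 2 would lie below the old controls, so this order rests on the scaling. Alpha ring genes summed to 959 to 1482 CPM in young hets and 1506 to 2140 CPM in young controls. Psma7 alone supplied 18.3 to 40.4% of core particle counts in young hets and 42.7 to 55.3% in young controls.

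**Figure D2:**
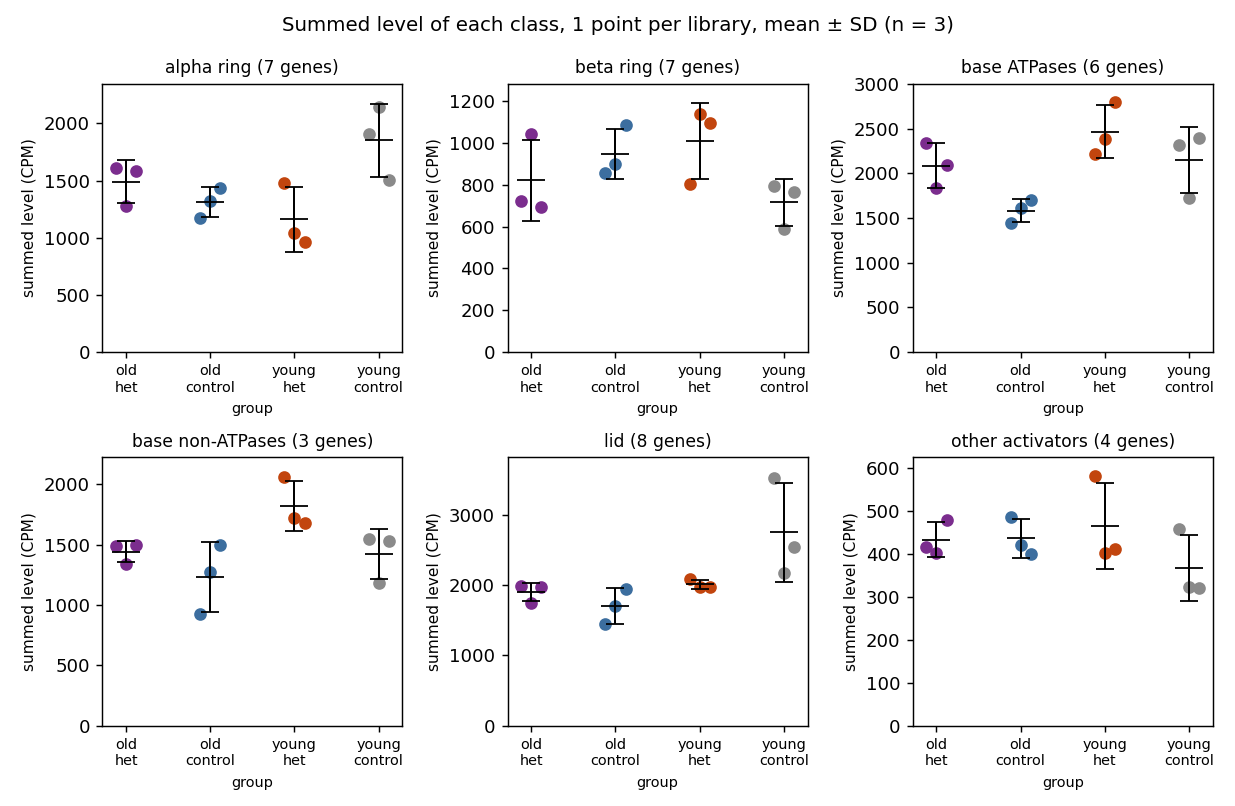
Summed level in CPM (vertical axis) of 6 classes of proteasome genes in the 4 groups, with 1 point per library and the mean ± SD of 3 libraries. With TMM scaling, base ATPase sums were lowest in the old controls (1442 to 1699.8 CPM). The alpha ring sum was lower in young hets than in young controls, with Psma7 alone averaging 607 against 1234 CPM and the other alpha ring genes overlapping.

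The only proteasome genes past the threshold were 2 lid genes, Psmd11 and Psmd7, and both were lower in old than in young controls. They made up 2 of the 40 genes tested, while 6.98% of all 10604 genes were called in this comparison and 4.19% were called lower. Their share is thus near the background. At an unadjusted p under 0.05 there were 7 proteasome genes, against 23.1% of all genes. Old controls had higher total counts than young controls, without overlap, and the part of depth in these calls was not tested. Every old control and young controls 1 and 2 carried Ddx3y, while young control 3 carried Xist without it, and sex was not in the fit.

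Psmd11 encodes a scaffold subunit of the lid, which touches both the base and the core particle. It had 123, 211 and 201 CPM in old controls, against 696, 579.6 and 494 CPM in young controls. In old hets it had 456, 132 and 359 CPM, and in young hets 319, 355 and 266 CPM. The control groups stood far apart, with the hets of both ages between them except old het 2, which lay with the old controls. The log2 change of old against young controls was -1.73 (SE 0.38, adjusted p = 0.0102, edgeR), or 3 against 3 libraries without overlap. Without old control 1 it was -1.51 with an adjusted p of 0.0634. With mitochondrial rRNA share added to the fit it was -0.84 (adjusted p = 0.60). Of the 3'-end stretches of Psmd11, 30.2% lie in A730017L22Rik on the opposite strand, which itself had 508 counts over all libraries against 10911 of Psmd11.

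Psmd7 encodes the partner of the lid's deubiquitinase. It had 315, 319.7 and 314 CPM in old controls, against 1594, 488 and 565 CPM in young controls. Old hets had 421, 349 and 521 CPM and young hets 574, 333 and 489 CPM. Old controls were nearly equal and lower than every other library, and young control 1 was far above its replicates. The log2 change of old against young controls was -1.48 (SE 0.39, adjusted p = 0.0277, edgeR). Without young control 1 it was -0.80 with an adjusted p of 0.188, and with mitochondrial rRNA share in the fit -1.65 with an adjusted p of 0.368. The call was also lost without old control 1, 2 or 3 (adjusted p = 0.0935, 0.0893 and 0.0869) and with only the control groups in the fit (adjusted p = 0.0602). Leaving out old control 1 and young control 3 together kept both lid genes past the threshold, at adjusted p = 0.0457 for Psmd11 and 0.0419 for Psmd7.

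Psmd14, which encodes the deubiquitinase itself, had 77.3, 102 and 84.0 CPM in old controls, against 125, 76.5 and 76.4 CPM in young controls. Its level was 154, 91.0 and 141 CPM in old hets and 105, 106 and 66.7 CPM in young hets. The control groups overlapped, and the log2 change was -0.09 (95% interval -0.81 to 0.64, adjusted p = 0.912, edgeR). The other 5 lid genes, Psmd3, Psmd6, Psmd8, Psmd12 and Psmd13, had log2 changes from -0.51 for Psmd13 to 0.36 for Psmd8, and none was called.

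Old and young controls did not overlap in 5 genes that were lower in old controls (Psma7, Psmc2, Psmc3, Psmd7 and Psmd11), against 12.2% of all genes. They did not overlap in 6 genes that were higher in old controls (Psmb1, Psmb3, Psmb6, Psmd5, Psme3 and Psme4), against 19% of all genes. Of the 17 base and lid genes 13 had a negative change in old controls, with a median of -0.28 on the log2 scale, and of the 14 ring genes 9 had a positive one, with a median of 0.23, while 57.9% of all genes had a positive change. The median was -0.08 over the 40 genes and 0.22 over all genes tested, and 22 of the 40 changes lay within 0.5 of 0, against 36.3% of all genes. Base ATPase genes had 5 negative changes of 6, led by Psmc2 with -0.90 (SE 0.44, adjusted p = 0.229, edgeR). Of the marker lists, 3 did not overlap between these groups. The 5 monocyte markers summed to 980 to 1576 CPM in old and 457 to 950 CPM in young controls. Among them Irf8 had 531 to 716 CPM in old and 159 to 339 CPM in young controls. Csf1r went the other way, with 12.8 to 15.1 CPM in old and 17.5 to 28.9 CPM in young controls, and Ly6c2, Ccr2 and Klf4 overlapped. The 6 megakaryocyte markers summed to 197 to 409.8 CPM in old and 105 to 173 CPM in young controls, and the 6 stem and multipotent markers to 122 to 934 CPM in old and 79.9 to 103 CPM in young controls. Overlapping lists included the 6 basophil and mast cell markers, with 492 to 733 CPM in old and 262 to 566 CPM in young controls, and the 9 erythroid markers, with 526 to 1440.2 CPM in old and 1155 to 1452 CPM in young controls. Their part in the results was not tested. Fewer cells of a type and less RNA per cell cannot be told apart in such bulk samples.

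Young hets and young controls gave no proteasome gene past the threshold in edgeR, against 0.424% of all genes called. DESeq2 called 1 (Psme4) and limma-voom 0. At an unadjusted p under 0.05 there were 9 of the 40 genes, against 14% of all genes. The median log2 change was 0.07, against 0.08 over all genes, and 26 of the 40 genes changed by at most 0.5 on the log2 scale, against 45.3% of all genes. The 8 neutrophil markers summed to 10713 to 15538 CPM in young hets and 7712 to 9414 CPM in young controls, and the 6 basophil and mast cell markers to 777 to 1010.4 CPM in young hets and 262 to 566 CPM in young controls. Neither list overlapped between these groups, nor did mitochondrial rRNA, which was lower in young hets, or total counts, which were higher. Of the neutrophil markers Mpo, Elane, Prtn3 and Gfi1 were higher in young hets without overlap, while Cebpe, S100a8 and S100a9 overlapped. Ctsg also overlapped but leaned the other way, with 336 to 453 CPM in young hets and 446 to 552 CPM in young controls. In the basophil and mast cell list Hdc alone had 579 to 667 CPM in young hets and 88.4 to 219 CPM in young controls. Prss34 was also higher without overlap, while Gata2, Cpa3, Mcpt8 and Ms4a2 overlapped. The part of these differences in the results was not tested.

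Psme4 encodes the nuclear activator PA200, which acts in the degradation of acetylated histones. It had 298, 183 and 175 CPM in young hets, against 93.4, 96.9 and 86.4 CPM in young controls. The controls were tight and every young het lay above them. In old hets the level was 228, 164 and 223 CPM, against 98.8, 174 and 167 CPM in old controls, which overlapped. The log2 change in young mice was 1.24 (SE 0.33, adjusted p = 0.0969, edgeR), with the same direction in 3 of 3 hets. DESeq2 put it at 1.18 with an adjusted p of 0.0242. Over the 15 alternatives the adjusted p ran from 0.0242 to 0.411.

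Psmb1 encodes a beta subunit without catalytic activity. Young hets had 408, 650.3 and 619.7 CPM and young controls 328, 224 and 345 CPM, without overlap. Old hets had 362, 403 and 421 CPM and old controls 390.3, 423 and 455 CPM. The log2 change of the young hets was 0.90 (SE 0.30, adjusted p = 0.175, edgeR). Psma7 went the other way, with 924, 519.9 and 376 CPM in young hets and 1222, 1509 and 971 CPM in young controls. Young het 1 came close to young control 3 in Psma7, and the log2 change was -1.02 (SE 0.36, adjusted p = 0.197, edgeR). It was -0.42 with mitochondrial rRNA share in the fit (adjusted p = 0.841), and -1.46 to -0.77 when 1 library was left out. Old hets had 1121, 594 and 1048 CPM of Psma7 and old controls 507, 735 and 765 CPM.

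Besides Psme4 and Psmb1, the genes Psma8, Psmc5, Psmd4 and Psme3 were higher in every young het than in every young control, 6 in all, against 9.72% of all genes. Psma7 and Psmd11 were lower without overlap, against 7.12% of all genes. Alpha ring genes had 5 negative changes of 7, beta ring genes 5 positive of 7 and base ATPase genes 5 positive of 6, where 54.2% of all genes had a positive change. None of these counts rests on a gene past the threshold. Psme3, the gene of the other nuclear activator, had 87.7, 91.1 and 79.1 CPM in young hets and 52.4, 64.6 and 57.3 CPM in young controls, with an unadjusted p above 0.05. Psme1 and Psme2, whose products form an activator that interferon-gamma raises, did not stand apart. Psme1 averaged 153 ± 30.2 CPM in young hets and 210.2 ± 80.5 CPM in young controls (SD, n = 3), and Psme2 lay at 0.150 to 9.21 CPM in young hets and 3.40 to 7.64 CPM in young controls. Psme2 shares 58.8% of its 3'-end stretches with its copy Psme2b and a further gene model, so its counts are uncertain. All 3 young hets and young control 3 carried Xist without Ddx3y while young controls 1 and 2 carried Ddx3y, so sex is only partly separate from genotype in this comparison and its part was not tested.

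**Figure D3:**
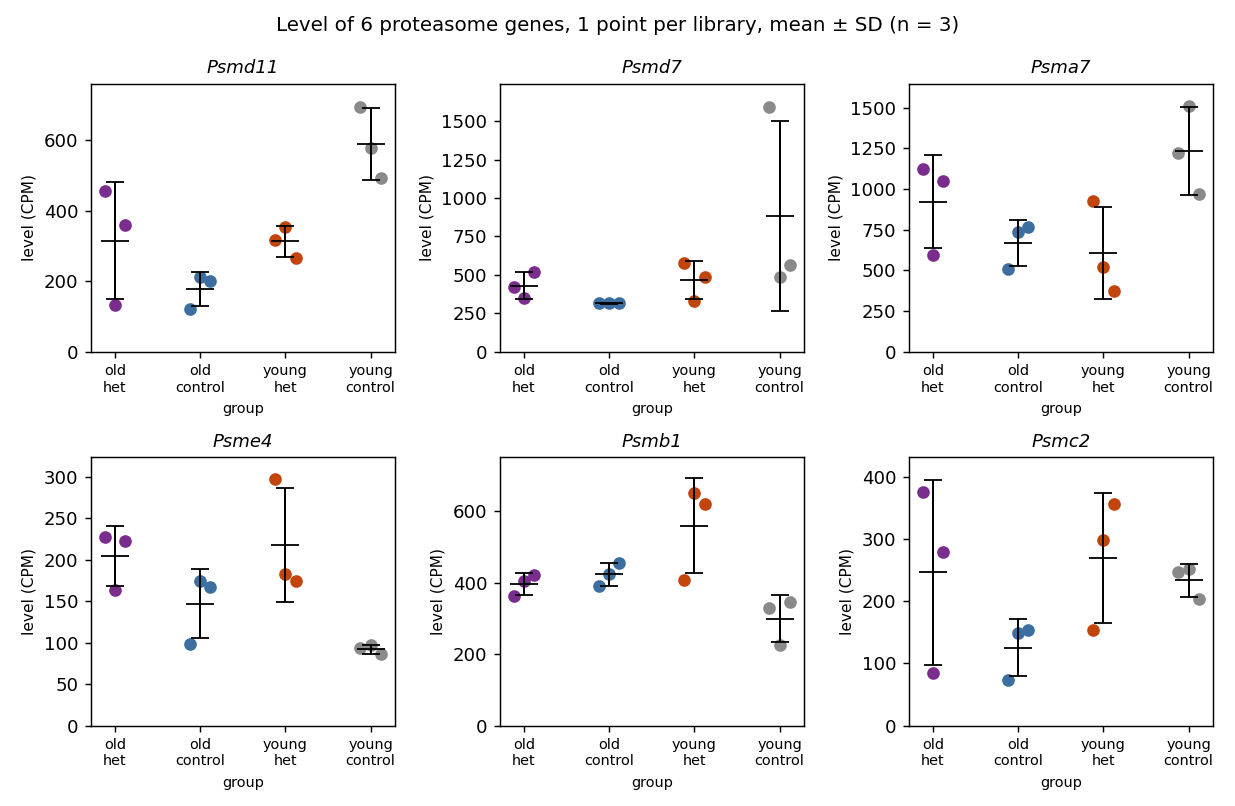
Level in CPM (vertical axis) of 6 proteasome genes in the 4 groups, with 1 point per library and the mean ± SD of 3 libraries. Psmd11 was lower in every old control (123 to 211 CPM) than in every young control (494 to 696 CPM), and Psme4 was higher in every young het than in every young control.

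Old hets and old controls gave no call among the proteasome genes, with 0% of all genes called by edgeR. DESeq2 and limma-voom also called 0 of the 40. At an unadjusted p under 0.05 there were 2 genes, Psmc2 and Psmd11, against 3.58% of all genes. The median log2 change was 0.07, against -0.05 over all genes, and 29 of the 40 genes changed by at most 0.5, against 60.7% of all genes. No direction of these changes passed the test. Old het 1 carried Xist without Ddx3y, while old hets 2 and 3 and every old control carried Ddx3y, and sex was not in the fit.

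Psmc2 encodes an ATPase of the base. It had 376, 84.6 and 279.7 CPM in old hets, against 73.0, 149 and 154 CPM in old controls. Old hets 1 and 3 lay above all old controls, and old het 2 lay among them. The log2 change was 0.98 (SE 0.44, unadjusted p = 0.0388, adjusted p = 0.999, edgeR), with 1.39 without old het 2 and 0.58 without old het 1. For Psmd11 it was 0.82 (SE 0.38, adjusted p = 0.999, edgeR), with 1.19 without old het 2 and 0.50 without old het 1. With mitochondrial rRNA share in the fit the changes were 0.35 for Psmc2 and 0.31 for Psmd11. Psmd5, an assembly chaperone gene, had 23.5, 24.9 and 31.5 CPM in old hets and 50.6, 42.4 and 57.9 CPM in old controls. Its groups did not overlap, and the log2 change was -0.92 (SE 0.49, adjusted p = 0.999, edgeR).

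All 6 base ATPase genes had a positive change in old hets, with a median of 0.36 on the log2 scale and a range from 0.11 for Psmc5 to 0.98 for Psmc2. Of the 17 base and lid genes 13 had a positive change, and of the 14 ring genes 11 had a negative one, against 46.8% of all genes with a positive change. Old hets did not overlap old controls in 4 genes that were higher (Psma8, Psmc1, Psmc4 and Psmd7), against 5.15% of all genes, and in 1 that was lower (Psmd5), against 5.99%. Old het 2, which had the lowest mitochondrial rRNA share, lay 1.5-fold or more below both other old hets in 5 genes (Psma5, Psma7, Psmc2, Psmd11 and Psmd14), or 12.5% against 17.8% of all genes. It lay as far above both in 7 genes (Psma1, Psma2, Psmb2, Psmb6, Psmd3, Psmd6 and Psme3), or 17.5% against 19.5% of all genes.

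Old hets against young hets gave no call and no proteasome gene at an unadjusted p under 0.05 in edgeR, where 0.00943% of all genes were called and 6.28% had such a p. DESeq2 and limma-voom called 0 of the 40. The median log2 change was -0.11, against 0.01 over all genes, and 26 of the 40 changes were negative, while 50.6% of all genes had a positive change. Within 0.5 of 0 lay 30 of the 40 changes, against 55.8% of all genes. The lowest p-values belonged to Psmc5, Psmd4 and Psmb1. Psmc5, a base ATPase gene, had 271, 361 and 255 CPM in old hets and 390.1, 360.2 and 527 CPM in young hets. Only old het 2 reached the young hets, and the log2 change was -0.52 (95% interval -1.15 to 0.10, adjusted p = 0.852, edgeR), with -0.34 without young het 3. Psmd4 had 752, 839.7 and 726 CPM in old hets and 1099.7, 1068 and 1166 CPM in young hets. Its groups did not overlap, and the log2 change was -0.52 (95% interval -1.15 to 0.10, adjusted p = 0.854, edgeR). Psmb1 changed by -0.50 (95% interval -1.12 to 0.12, adjusted p = 0.863, edgeR). Psmc4, Psmd4 and Psmd9 were lower in every old het than in every young het, against 6.95% of all genes, and Psma3 was higher, against 7.08%. The 3 young hets and old het 1 carried Xist without Ddx3y, while old hets 2 and 3 carried Ddx3y. The 9 erythroid markers summed to 338 to 802 CPM in old and 972 to 1792 CPM in young hets, and the 5 monocyte markers to 1109 to 1418 CPM in old and 689 to 1060.1 CPM in young hets. The 6 basophil and mast cell markers summed to 587 to 738 CPM in old and 777 to 1010.4 CPM in young hets. None of these 3 lists overlapped between the het groups. Of the monocyte markers, Irf8 had 598 to 641 CPM in old and 152 to 444 CPM in young hets. Csf1r was just higher in old hets, and Ly6c2, Ccr2 and Klf4 overlapped. Hdc had 336 to 576 CPM in old and 579 to 667 CPM in young hets. Ms4a2 went the other way without overlap, and Gata2, Cpa3, Prss34 and Mcpt8 overlapped. Total counts also did not overlap. The part of these lists, of depth and of sex in the results was not tested.

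The het effect was also compared between ages as a difference, old minus young. No proteasome gene passed the threshold in edgeR, where 0.0849% of all genes were called, while DESeq2 called 2 (Psmd11 and Psma7) and limma-voom 0. At an unadjusted p under 0.05 there were 4 genes (Psmd11, Psma7, Psmd7 and Psmb1), against 12.8% of all genes. The difference was 1.74 for Psmd11 (SE 0.53, adjusted p = 0.171, edgeR), made up of 0.82 in old and -0.91 in young mice. It was 1.49 for Psma7 (SE 0.51, adjusted p = 0.215, edgeR) and 1.37 for Psmd7 (SE 0.55, adjusted p = 0.286, edgeR). Without young control 1 it was 0.68 for Psmd7 (adjusted p = 0.565). With mitochondrial rRNA share in the fit it was 0.60 for Psmd11 and 0.47 for Psma7. In all 3 genes the young controls were the highest group by mean. The median difference was 0.02 over the 40 genes and -0.18 over all genes.

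**Figure D4:**
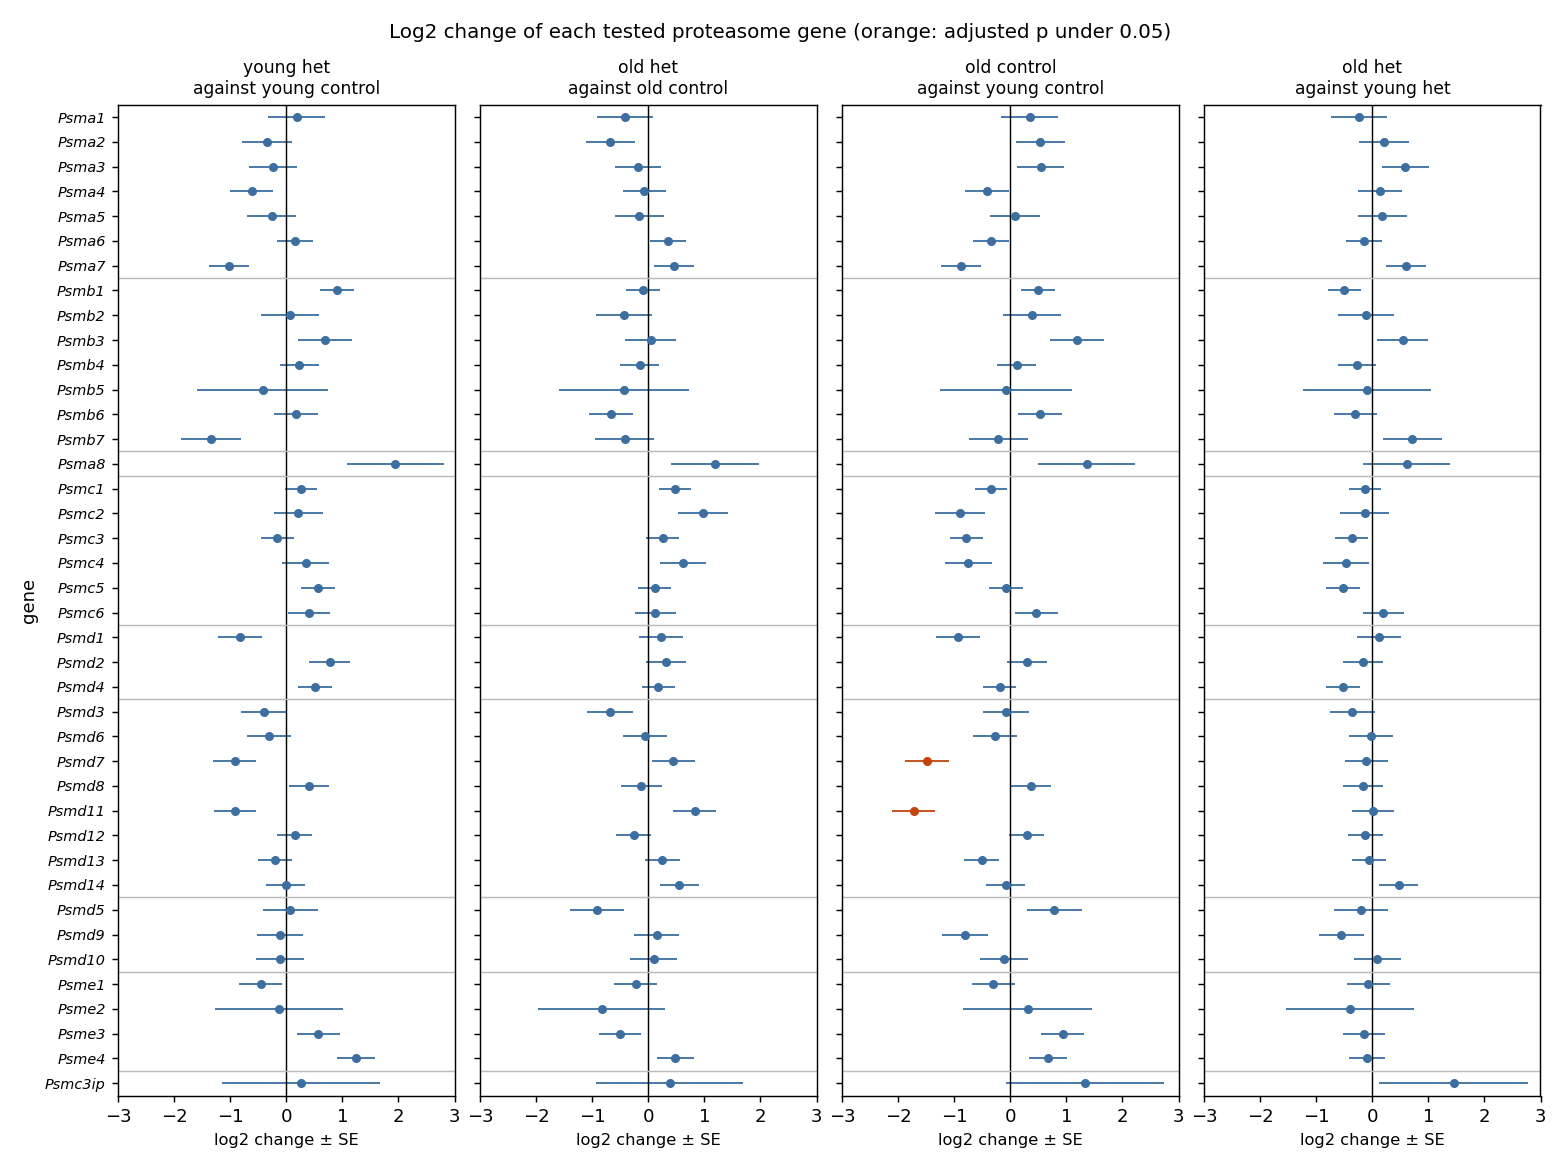
Log2 change ± SE (horizontal axis) of the 40 tested proteasome genes (rows) in 4 comparisons, with genes past an adjusted p of 0.05 in orange. Only Psmd11 and Psmd7 are orange, both in old against young controls, and most genes lie within 1 of 0 in each panel.

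Large changes were few among the proteasome genes. Changes beyond 1 on the log2 scale were seen in 5 of the 40 genes between the control groups, against 35.8% of all genes, and in 4 between young hets and young controls, against 26.7%. Between old hets and old controls there was 1, against 12.9% of all genes, and between old and young hets 1, against 16.5%. These shares were not matched on level. The steadiest gene over the 12 libraries was the lid gene Psmd12, with a coefficient of variation of 14.5%, followed by Psmc1 with 19.3%. Among genes above 100 CPM the most variable were Psmd7 with 67.1% and Psmd11 with 51.3%.

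Genes that work with the proteasome were described from a list of assembly factors, bound enzymes, ubiquitin genes and shuttle proteins, of which 35 were tested. None was called outside old against young controls, where 3 were lower and none higher, against 4.19% of all genes lower and 2.79% higher. Psmg1, an assembly chaperone of the alpha ring, had 139, 241 and 259 CPM in old controls, against 632, 653 and 757 CPM in young controls, a log2 change of -1.68 (SE 0.43, adjusted p = 0.0227, edgeR). Old hets had 449, 92.6 and 364 CPM of Psmg1, and old het 2 was again the lowest of its group. Ubqln4, a shuttle that carries ubiquitinated proteins, had 50.6, 41.0 and 76.9 CPM in old controls and 106, 121 and 308 CPM in young controls, a log2 change of -1.68 (SE 0.43, adjusted p = 0.0233, edgeR). Akirin2, which brings proteasomes into the nucleus, had 63.7, 106 and 142 CPM in old controls and 361, 513 and 160.5 CPM in young controls, a log2 change of -1.73 (SE 0.45, adjusted p = 0.0259, edgeR). The control groups did not overlap in any of the 3, and each call was lost in 4 or 5 of 15 alternatives, leaving out old control 1 among them. With mitochondrial rRNA share in the fit the changes were -0.76 for Psmg1 (adjusted p = 0.703), -2.05 for Ubqln4 (adjusted p = 0.303) and -0.26 for Akirin2 (adjusted p = 0.909). For Ubqln4 the change was -1.07 without young control 3 (adjusted p = 0.118), and -0.94 when old control 1 was left out as well (adjusted p = 0.261). Young hets also lay below young controls without overlap in Psmg1 (298 to 455 CPM in young hets) and Akirin2, and overlapped them in Ubqln4. Akirin2 had 67.0 to 126 CPM in young hets and 60.1 to 180 CPM in old hets. Its log2 change in young hets against young controls was -1.75 (unadjusted p = 0.000922, adjusted p = 0.0861, edgeR). Nfe2l1 and Nfe2l2 were not called in any comparison.

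Of the 3 immunoproteasome genes, which replace the catalytic beta subunits, Psmb9 and Psmb8 were called higher in old than in young controls, where 2.79% of all genes were called higher, and Psmb10 was not called. Psmb9 had 142, 141 and 92.4 CPM in old controls and 36.4, 5.10 and 28.3 CPM in young controls, a log2 change of 2.36 (SE 0.51, adjusted p = 0.00893, edgeR). It was 2.27 without old control 1 (adjusted p = 0.0363) and 1.56 with mitochondrial rRNA share in the fit (adjusted p = 0.514). Psmb8 had 508, 227 and 224 CPM in old controls and 121, 138 and 138 CPM in young controls, a log2 change of 1.28 (SE 0.36, adjusted p = 0.0386, edgeR). The 508 CPM belonged to old control 1, the library with 673 CPM of dendritic and MHC class II markers, and without it the change was 0.78 (adjusted p = 0.254). The call of Psmb8 held in 7 of 15 alternatives, which were chosen for these genes after seeing the data. Psmb10 had 144, 72.1 and 70.8 CPM in old controls and 106, 74.8 and 24.5 CPM in young controls, which overlapped (log2 change 0.49, adjusted p = 0.578, edgeR). The het groups overlapped in Psmb9, with 22.6 to 51.2 CPM in old and 36.6 to 68.6 CPM in young hets. Old hets lay below old controls in Psmb9 without overlap (log2 change -1.79, unadjusted p = 0.00158, adjusted p = 0.999, edgeR). Psmb8, with 137 to 247 CPM in old and 131 to 201 CPM in young hets, and Psmb10 overlapped between old hets and old controls.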

How the data were processed

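RNA of 12 libraries of sorted mouse progenitors was counted per gene by the submitters, and the deposited table holds whole-number counts, not normalized, for 33924 gene symbols. The build mm9 and the tools STAR 2.4, HTSeq 0.6.1 and DESeq2 are named, per the submitters' processing notes, without their roles. With annotation, strand setting and use of molecular identifiers not given in the sources used here, overlapping and near-identical genes may be mixed in the counts, to an unknown extent.

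The quasi-likelihood F test of edgeR 4.0.16 (R 4.3.3) was run on TMM-scaled counts after filterByExpr (minimum count 10, minimum total 15), which left 10604 genes. The 4 groups entered 1 fit (biological coefficient of variation 0.535), and p-values were adjusted by Benjamini-Hochberg over all tested genes at 0.05. The SE is the absolute log2 change divided by the square root of F, and intervals are at 95%. Levels are CPM against TMM-scaled totals of tested genes, so that 3 counts equal 0.275 CPM at the greatest depth and 5.10 CPM at the smallest. Replicates were numbered in accession order, which pairs none, and replicates differed by more than sampling noise in every pair (5.22 to 50.9 for chi-square over its degrees of freedom). All 41 symbols were found in RefSeq. Shared 3'-end stretches were counted in GENCODE transcripts of GRCm38, not mm9. Alternatives were DESeq2 1.42.0, limma-voom (limma 3.58.1), other scaling and filters, a covariate for mitochondrial rRNA share, fewer groups and fewer libraries. The steps were tested on simulated counts.

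The genes and lists were chosen with earlier results of these data known. For genes past the threshold, otherwise the 3 lowest p-values of a comparison, values are given in each library of at least the groups compared. The same holds for partners past the threshold. Values in every library are given for the 3 catalytic beta genes, Psmd14, Psme4 and the highest and lowest gene. Psmb11 is given by its counts. Psma8, Psme1, Psme2, Psme3 and Psmb8 to Psmb10 were named after their values were seen.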

Additional observations from a re-analysis of the deposited data

How the results depend on the processing

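Over the 15 alternatives of each comparison, and 20 for the difference of effects, no result turned its direction past a threshold. With DESeq2 the number of proteasome genes called was 1 for young hets against young controls and 2 for the difference of het effects, against 0 in edgeR. For old against young controls 2 genes were called, and the number was 0 with mitochondrial rRNA share in the fit, where all-gene calls also fell to 0, and 1 with only those groups in the fit. Leaving out each library in turn gave 0 to 4 calls there, with 0 without old control 1 and 4 without young control 3, 0 to 1 for the difference of effects and 0 in the other comparisons. Core, regulatory and activator sums of each library were also computed under other scalings. Of these sums 35 moved by at least the SD of their group and 73 did not.

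The median log2 change of the difference of effects, 0.02, was 0.23 with at least 50 counts in 3 libraries, 0.15 with mitochondrial rRNA share in the fit, -0.14 with both old control 1 and young control 3 left out, and -0.25 to 0.049 when each library was left out. The cause was not tested. The other medians, each library left out, were -0.092 to 0.075 for old against young controls, -0.041 to 0.21 for old hets against old controls, -0.13 to -0.063 for old against young hets and -0.071 to 0.094 for young hets against young controls, and all but 1 of these ranges span 0. Genes under 10 CPM rest on few counts in the shallow libraries. No paired analysis was possible because the label numbers are not shared between groups.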
